A study of Mus musculus with 2 samples.

Results

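The 9 genes of gastric acid secretion were followed in total RNA of the embryonic mouse stomach, out of 43346 genes in the tables. They were chosen by name for what the acid-secreting parietal cell uses, with earlier results of these data known. All 9 were found by gene identifier in both gene tables. They comprised both subunits of the proton pump (Atp4a and Atp4b), 3 potassium channel genes (Kcnq1, Kcne2 and Kcnj15), 3 genes of anion transport (Slc26a7, Slc26a9 and Clic6) and the nuclear receptor gene Esrrg. Whole stomachs of healthy B6NCrl mouse embryos at day 15.5 of both sexes were pooled, and RNA longer than 200 nucleotides was made into libraries from 10 ng of input. The series held 1 group of 2 biological replicates, replicate 1 from 78 embryos and replicate 2 from 62 embryos. The labels give both pools the same donor entry and do not state whether they came from separate litters or days, so the spread between them may not cover all biological variation. No transgene, treatment or second condition was present, so the data give levels and the difference between 2 pools, and a pool averages over its embryos.

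Parietal cells of the gastric glands secrete hydrochloric acid. The proton pump, a P-type ATPase made of a catalytic alpha and a glycosylated beta subunit, exchanges cytosolic protons for luminal potassium. A potassium channel in the same membrane, with Kcnq1 as its pore and Kcne2 as its accessory subunit, returns the potassium to the lumen, and anion transporters supply chloride and remove bicarbonate. In mice the receptor encoded by Esrrg is known to regulate many of these genes in parietal cells. Acid secretion belongs to the mature gland, and at day 15.5 the glands have not yet formed.

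The libraries held 44038879 expected counts in replicate 1 and 45625704 in replicate 2, of which added spike-in RNA took 1.883% in replicate 1 and 2.999% in replicate 2. Markers of adjoining organs were detected in both pools, which does not show which cells held them. The summed level of 8 exocrine pancreas markers was 6947 TPM (a transcript level corrected for length and library size) in replicate 1 and 9574 TPM in replicate 2, and all 8 were detected. Other marker levels differed between the pools. A gene was called at an adjusted p under 0.05 and a log2 ratio of at least 1 in size (exact binomial test, described below), which 5.68% of all genes met as higher in replicate 1 and 0.784% as lower. Summed markers of squamous forestomach were at 2821 and 1499 TPM in replicates 1 and 2, with 4 of 8 called higher in replicate 1, and those of liver at 1908 and 948 TPM, with 6 of 8 called higher. Markers of cardiac and skeletal muscle summed to 55.9 TPM in replicate 1 against 94.4 TPM in replicate 2, with 3 of 7 called lower in replicate 1 (Acta1, Myh3 and Myog). Myl7 and Tnnt2 were also lower there but not called. Nppa (2.16 and 1.98 TPM) and Myh6 (0.78 and 0.61 TPM) went the other way, also not called.

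Promoter sequence was printed for members whose starts or level the results turn on. RefSeq promoters on GRCm38.p6, reaching from 250 bases before to 50 bases after an annotated start, were matched for 5 of the 9 members (Atp4a, Kcne2, Kcnj15, Slc26a9 and Esrrg), which had 9 promoters between them. Atp4b, Kcnq1, Slc26a7 and Clic6 had no entry. Both strands were searched for 4 motifs, with overlaps between them allowed. AAGGTCA is the element bound by oestrogen-related receptors, AGATAA is bound by GATA factors, TATAAA is the core promoter box, and TGTTTAC is bound by forkhead factors. The capitals below mark a match on either strand. Atp4a is shown because it was the member that differed most between the pools (chr7:30711959-30712258, plus strand), and none of the 4 motifs was found in its window.
Atp4a: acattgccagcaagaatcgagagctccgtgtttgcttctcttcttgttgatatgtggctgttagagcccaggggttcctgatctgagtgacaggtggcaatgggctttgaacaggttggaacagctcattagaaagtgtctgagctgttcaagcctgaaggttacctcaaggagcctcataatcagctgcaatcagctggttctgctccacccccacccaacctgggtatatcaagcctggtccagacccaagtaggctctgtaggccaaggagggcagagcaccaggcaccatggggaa
Kcnj15 is shown because its transcript shares differed between the pools (chr16:95257308-95257607, plus strand). AGATAA was found 5 bases before the start, and TATAAA on the minus strand (printed as TTTATA) 10 bases after it.
Kcnj15: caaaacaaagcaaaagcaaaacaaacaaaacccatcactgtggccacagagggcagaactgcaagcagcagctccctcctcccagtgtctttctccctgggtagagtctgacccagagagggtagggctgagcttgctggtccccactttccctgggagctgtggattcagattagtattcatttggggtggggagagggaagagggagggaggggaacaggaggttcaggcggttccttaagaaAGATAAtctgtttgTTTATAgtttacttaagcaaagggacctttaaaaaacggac
Kcne2 and Esrrg are shown with an upstream and a downstream start each, because their estimated counts lay almost wholly on 1 of these. For Kcne2 the upstream window (chr16:92292139-92292438, plus strand) belongs to the transcript that held every count, and the downstream window (chr16:92295366-92295665, plus strand) to a transcript with 0 counts.
Kcne2 upstream: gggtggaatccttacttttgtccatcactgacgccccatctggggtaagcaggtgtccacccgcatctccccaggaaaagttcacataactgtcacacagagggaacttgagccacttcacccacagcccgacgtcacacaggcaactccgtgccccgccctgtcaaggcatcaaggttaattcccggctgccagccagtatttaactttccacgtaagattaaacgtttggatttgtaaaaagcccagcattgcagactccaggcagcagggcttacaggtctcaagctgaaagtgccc
Kcne2 downstream: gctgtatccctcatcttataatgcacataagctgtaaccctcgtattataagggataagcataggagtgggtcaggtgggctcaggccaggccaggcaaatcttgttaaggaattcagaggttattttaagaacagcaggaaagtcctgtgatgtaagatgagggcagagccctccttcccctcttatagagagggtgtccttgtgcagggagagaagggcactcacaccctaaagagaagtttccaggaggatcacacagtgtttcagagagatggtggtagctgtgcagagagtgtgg
For Esrrg the downstream window (chr1:187997577-187997876, plus strand) belongs to the transcript that held most counts. In the upstream window (chr1:187608756-187609055, plus strand) TATAAA was found on the minus strand at base -19. Between the printed windows lie further Esrrg promoters, not printed, with starts at 187651758 and 187652241. No annotated Esrrg transcript starts at either, and none of the 4 motifs was found in them.
Esrrg downstream: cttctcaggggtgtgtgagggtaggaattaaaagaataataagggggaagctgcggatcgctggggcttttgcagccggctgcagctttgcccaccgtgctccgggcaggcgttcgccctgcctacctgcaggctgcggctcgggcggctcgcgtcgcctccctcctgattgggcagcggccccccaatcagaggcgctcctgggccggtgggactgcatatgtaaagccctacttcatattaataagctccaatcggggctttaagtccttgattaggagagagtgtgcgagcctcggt
Esrrg upstream: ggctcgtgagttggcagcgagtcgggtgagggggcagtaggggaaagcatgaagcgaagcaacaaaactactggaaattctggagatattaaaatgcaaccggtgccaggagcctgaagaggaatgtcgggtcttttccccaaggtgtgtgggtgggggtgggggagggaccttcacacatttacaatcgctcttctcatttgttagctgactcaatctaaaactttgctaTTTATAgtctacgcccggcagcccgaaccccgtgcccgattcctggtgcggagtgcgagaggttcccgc
The window of Slc26a9 (chr1:131743772-131744071, plus strand), not printed, held TATAAA on both strands at bases -28 and -30, overlapping each other, and AGATAA on the minus strand at base -141. Over the 9 windows TATAAA was found in 3 and AGATAA in 2, and neither AAGGTCA nor TGTTTAC in any. Among all 32851 promoters of the same length these motifs were found in 13.6% (TATAAA), 11.2% (AGATAA), 4.72% (AAGGTCA) and 3.65% (TGTTTAC).

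All 9 acid secretion genes were detected, which means that they reached 1 TPM in each library. Of all genes 35.9% were detected, and of protein-coding genes 64.5%. Because the 9 genes were chosen with earlier results of these data known, their detection is a description and not a test. The median level of the 9 genes was 6.67 TPM in replicate 1 against 6.07 TPM in replicate 2, while that of all detected protein-coding genes was 17.48 and 17.95 TPM. The acid secretion genes thus lay mostly in the lower part of the expressed genes. By mean TPM, 68.1% of detected protein-coding genes lay below Clic6 and 47.6% below Atp4b, and between 7.40% (Kcne2) and 32.3% (Kcnq1) lay below the remaining 7. In whole tissue, fewer cells that express a gene and less RNA per cell cannot be told apart, and these levels do not show which cells held the transcripts.

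**Figure D1:**
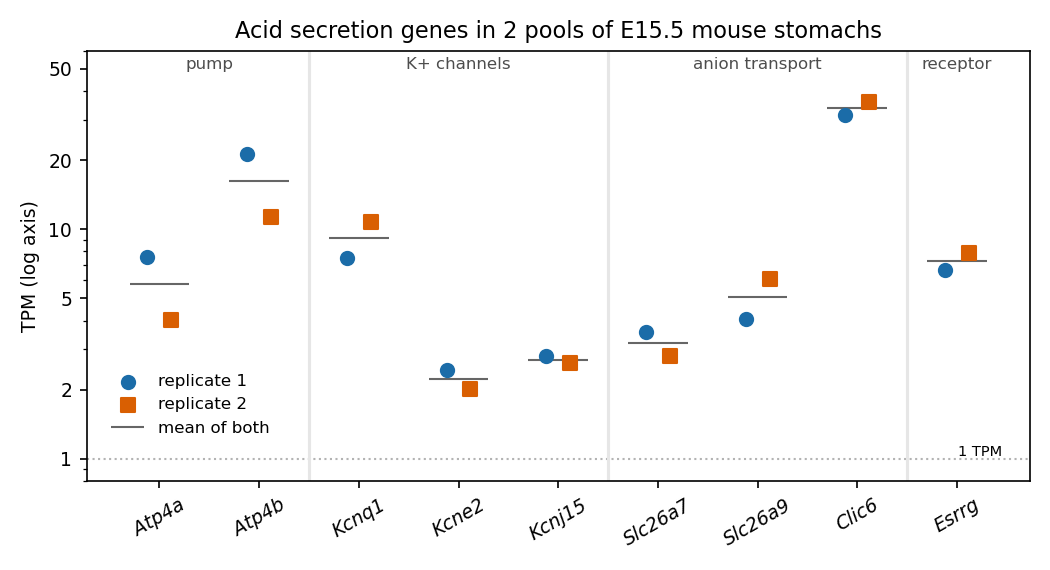
Level of each acid secretion gene in TPM on a log axis, with replicate 1 as circles, replicate 2 as squares and a bar at the mean of both. All 9 genes lie above the dotted line at 1 TPM, Clic6 and Atp4b are highest, and Atp4a and Atp4b are visibly higher in replicate 1.

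By mean level the order was Clic6, Atp4b, Kcnq1, Esrrg, Atp4a, Slc26a9, Slc26a7, Kcnj15 and Kcne2. The ranges of the 2 libraries did not overlap between Clic6 and Atp4b, between Atp4b and Kcnq1, between Slc26a9 and Slc26a7, or between Kcnj15 and Kcne2. Neighbours from Kcnq1 down to Slc26a9 overlapped, as did Slc26a7 and Kcnj15, so their order did not exceed the spread between the pools. When the TPM of transcripts shorter than 1000 bases was left out, a choice made after the data were seen, Atp4a stood at 5.80 and 2.61 TPM and Slc26a9 at 2.51 and 3.35 TPM in replicates 1 and 2. The order of the means stayed as above, but every neighbour from Esrrg down to Kcne2 then overlapped.

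The proton pump genes differed most between the pools. Atp4a, the catalytic subunit (ENSMUSG00000005553.9, mm10 chr7:30712209-30725534, plus strand), had 640 counts and 7.55 TPM in replicate 1 and 302 counts and 4.01 TPM in replicate 2, or 5.78 ± 2.50 TPM (SD, n = 2). Atp4b, the beta subunit that carries the pump to the apical membrane (ENSMUSG00000031449.9, chr8:13386205-13396825, minus strand), had 805 counts and 21.23 TPM in replicate 1 and 430 counts and 11.29 TPM in replicate 2, or 16.3 ± 7.03 TPM (SD, n = 2). Both subunits were higher in replicate 1 on every measure printed here.

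After scaling for library size (TMM), Atp4a was 2.18-fold higher in replicate 1, a log2 ratio of 1.12 (95% exact binomial interval 0.93 to 1.33) with an adjusted p of 3.19e-29 in a two-sided exact binomial test over 20918 genes. It was thus called. Of all genes tested 5.68% were called higher in replicate 1, and 6.47% in either direction. Atp4b was 1.93-fold higher in replicate 1, with a log2 ratio of 0.95 (interval 0.78 to 1.12) and an adjusted p of 1.05e-27 in the same test, and fell short of the fold limit. In gene-level TPM the log2 ratio was 0.91 for Atp4a and 0.91 for Atp4b, both under the limit. From transcripts of at least 1000 bases, a choice made after the data were seen, the TPM ratio of Atp4a was 1.15, past the limit. Its place beside the limit thus depended on the unit and on the short transcripts. The exact binomial test covers counting error only and compares 2 libraries, not conditions, and PCR copies could not be told from independent molecules. The edgeR exact test allows for spread between replicates, here a biological coefficient of variation of 0.197 over all genes. Its adjusted p was 0.175 for Atp4a and 0.416 for Atp4b. This spread was estimated from the same 2 libraries that the test compares. It is thus no separate measure of biological spread, and the test asks only whether a gene differed more than genes in general did. Beside the pump genes, summed markers were 1.88 times as high in replicate 1 as in replicate 2 for squamous forestomach, 2.01 times for liver, 1.66 times for chief cells (3 of 5 detected, Lipf and Chia1 below 1 TPM), 1.33 times for gastric pit cells (3 of 5 detected, 2 called higher and 1 lower) and 0.982 times for gastric endocrine cells (5 of 5 detected). Tff1 held 93.8% of the gastric pit sum in replicate 1 and 94.4% in replicate 2, and Muc5ac went the other way at 0.73 and 1.84 TPM. The part of these cell types in the difference of the pump genes was not tested.

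In TPM the ratio of the pump subunits was nearly equal in both pools. Atp4b was 2.81 times as high as Atp4a in replicate 1 and 2.82 times in replicate 2, a log2 ratio of 1.49 ± 0.0013 (SD, n = 2). The closeness of the pools depended on the unit. In CPM, counts scaled to library size without a length correction, the log2 ratio was 0.33 in replicate 1 and 0.51 in replicate 2. From transcripts of at least 1000 bases it was 1.87 in replicate 1 and 2.11 in replicate 2. The beta subunit gene was far below the main beta subunit genes of the sodium pump. Atp1b1, a beta subunit of the sodium pump, was at 117.13 and 131.84 TPM in replicates 1 and 2, which was 5.52 and 11.7 times the level of Atp4b.

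Atp12a, the non-gastric proton pump of colon and skin, was at 0.08 TPM in replicate 1 against 0.03 TPM in replicate 2, and was thus far below Atp4a in both pools. Among 5 beta subunit genes Atp4b supplied 7.60% of the TPM in replicate 1 against 3.98% in replicate 2. It lay below Atp1b3 (134.62 and 134.30 TPM) and Atp1b1, and above Atp1b2 (6.33 and 6.09 TPM) and Atp1b4 (0.13 and 0.34 TPM). Atp1b4, a muscle gene, was the only beta subunit gene called, lower in replicate 1 with a log2 ratio of -1.36 and 16 and 43 counts (adjusted p 0.0042, exact binomial test). In the edgeR exact test the adjusted p of Atp1b4 was 0.384.

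**Figure D2:**
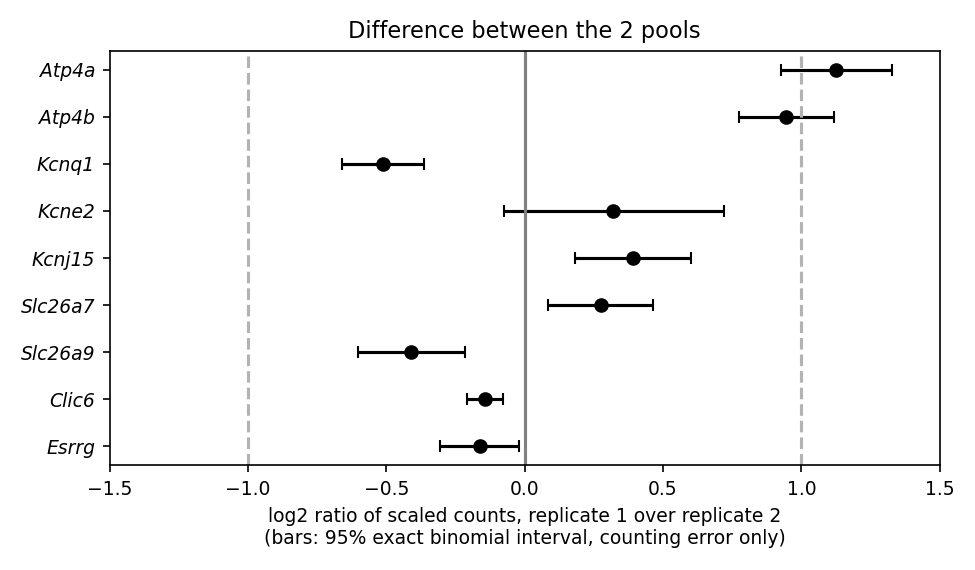
Log2 ratio of scaled counts, replicate 1 over replicate 2, for each acid secretion gene, with 95% exact binomial intervals that cover counting error only. Dashed lines mark the limits of -1 and 1, and the point of Atp4a alone lies beyond them. With spike-in scaling every point would move right by 0.68, which turns the sign of Kcnq1, Slc26a9, Clic6 and Esrrg.

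Of the 3 potassium channel genes, Kcne2 and Kcnj15 leaned the same way as the pump genes and Kcnq1 the other way. These differences between genes were not tested. Kcnq1, the pore of the apical channel (ENSMUSG00000009545.10, chr7:143106362-143427042, plus strand), had 631.88 counts and 7.48 TPM in replicate 1 and 928.02 counts and 10.78 TPM in replicate 2. Its log2 ratio was -0.51 (95% interval -0.66 to -0.36, adjusted p 7.78e-11, exact binomial test), so Kcnq1 was lower in replicate 1, where the pump genes were higher. With spike-in scaling its ratio was 0.17 instead. Kcnq1 spans the antisense RNA gene Kcnq1ot1 (chr7:143203458-143296549, minus strand), which held 10706 counts in replicate 1 and 10357.3 in replicate 2 and was at 4.11 and 3.96 TPM. In GENCODE M21 the genes share 121 exon bases, and without a stated strand setting their reads there cannot be told apart. Kcnq1ot1 was 84395 bases long as quantified and is 93092 bases in M21, so the overlap in the annotation used for the counts is uncertain. Kcnq1 was the only acid secretion gene whose counts were not whole numbers in both libraries (tolerance 0.005).

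Kcne2, the accessory subunit that keeps the Kcnq1 channel open in acid (ENSMUSG00000039672.8, chr16:92292389-92298129, plus strand), was the lowest of the 9 genes. It had 120 counts and 2.44 TPM in replicate 1 and 99 counts and 2.01 TPM in replicate 2, or 2.23 ± 0.304 TPM (SD, n = 2). Its log2 ratio of 0.32 had an interval of -0.08 to 0.72 (adjusted p 0.244, exact binomial test), so it did not pass. With spike-in scaling the ratio of Kcne2 was 0.995 with an adjusted p of 7.09e-07 in the same test, under the fold limit, so this depends on the scaling. Kcne2 was at 0.326 times the level of Kcnq1 in replicate 1 and 0.186 times in replicate 2, a log2 TPM ratio of -2.02 ± 0.57 (SD, n = 2). Kcnj15, an inward rectifier found in parietal cells (ENSMUSG00000062609.9, chr16:95257558-95300260, plus strand), had 433 counts and 2.79 TPM in replicate 1 and 340 counts and 2.60 TPM in replicate 2. Its log2 count ratio was 0.39 (interval 0.18 to 0.60, adjusted p 0.00112, exact binomial test), higher in replicate 1 and short of the fold limit.

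Kcne2 was not the main gene of its family. Kcnq1 lay above Kcnq5 (1.88 and 1.58 TPM) and Kcnq3 (0.36 and 0.49 TPM) in both replicates. Kcne2 supplied 4.18% of the TPM of 5 KCNE genes in replicate 1 and 3.83% in replicate 2. Kcne1l, a partner subunit also named Kcne5, was at 28.02 and 25.04 TPM in replicates 1 and 2, which was 11.5 and 12.5 times the level of Kcne2. Kcne3, the partner of Kcnq1 in intestinal crypts, was at 20.84 and 18.67 TPM, or 8.54 and 9.29 times the level of Kcne2. Kcne4, an inhibitory partner, was at 6.58 and 6.59 TPM, and Kcne1, the partner of Kcnq1 in heart and inner ear, was below 1 TPM at 0.50 and 0.18 TPM. None of the 5 KCNE genes was called different between the pools.

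Kcnj15 was 1 of 4 detected among 15 inward rectifier genes. Kcnj8, a subunit of ATP-sensitive channels known from vascular muscle and pericytes, was far higher at 49.29 TPM in replicate 1 against 63.33 TPM in replicate 2, or 83.4% and 86.3% of the family's TPM. Kcnj13 (2.73 and 2.30 TPM) and Kcnj12 (1.43 and 1.37 TPM) were also detected, and the range of Kcnj13 overlapped that of Kcnj15. The other 11 lay between 0 and 1.11 TPM, among them the basolateral channel genes Kcnj10 (0.08 and 0.14 TPM) and Kcnj16 (0.19 and 0.05 TPM).

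Clic6 was the highest of the acid secretion genes. It encodes a chloride intracellular channel protein that marks parietal cells in the stomach (ENSMUSG00000022949.5, chr16:92485736-92541243, plus strand). Clic6 had 3566 counts and 31.57 TPM in replicate 1 and 4058 counts and 35.77 TPM in replicate 2, or 33.7 ± 2.97 TPM (SD, n = 2). The pools lay close together, with a log2 ratio of -0.14 (95% interval -0.21 to -0.08, adjusted p 0.000101, exact binomial test), and with spike-in scaling the ratio was 0.54. Clic6 lies 187606 bases downstream of Kcne2 on chromosome 16, with 4 protein-coding genes between them (Smim11, Fam243, Kcne1 and Rcan1). These neighbours differed widely in level. Smim11 was at 111.29 and 116.21 TPM in replicates 1 and 2, Rcan1 at 20.09 and 19.83 TPM, and Kcne1 below 1 TPM.

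Slc26a9 and Slc26a7 were lower than Clic6. Slc26a9, a chloride transporter of the gastric epithelium (ENSMUSG00000042268.6, chr1:131744022-131771504, plus strand), had 383 counts and 4.06 TPM in replicate 1 and 524 counts and 6.07 TPM in replicate 2. It was lower in replicate 1, at a log2 ratio of -0.41 (interval -0.60 to -0.22, adjusted p 0.000171, exact binomial test), and 0.27 higher with spike-in scaling. Slc26a7, a chloride and bicarbonate exchanger of the parietal cell's basolateral membrane (ENSMUSG00000040569.9, chr4:14502430-14621805, minus strand), had 497 counts and 3.57 TPM in replicate 1 and 423 counts and 2.79 TPM in replicate 2. Its log2 ratio was 0.27 (interval 0.08 to 0.47, adjusted p 0.0169, exact binomial test). These 2 genes thus leaned opposite ways, and the TPM of Slc26a9 was 1.14 times that of Slc26a7 in replicate 1 and 2.18 times in replicate 2.

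Neither Slc26a9 nor Slc26a7 led its family. Of 11 SLC26 genes 7 were detected. The sulfate transporter gene Slc26a2 was highest at 21.09 TPM in replicate 1 against 24.54 TPM in replicate 2, followed by Slc26a6 (10.47 and 15.06 TPM), a chloride and bicarbonate exchanger of many epithelia, and Slc26a11 (8.09 and 7.45 TPM). Slc26a9 and Slc26a7 followed with 7.77% and 6.84% of the family's TPM in replicate 1 and 9.85% and 4.53% in replicate 2. Slc26a3 (2.03 and 2.94 TPM), the chloride exchanger of the colon, and Slc26a1 (2.12 and 1.87 TPM) were lower, and the other 4 stayed below 1 TPM. Among 5 CLIC genes Clic6 had 6.68% of the TPM in replicate 1 against 7.73% in replicate 2, after Clic1 (299.42 and 294.60 TPM) and Clic4 (115.66 and 117.02 TPM). Clic3 was the only member of these 2 families called, at 21.74 TPM in replicate 1 against 9.67 TPM in replicate 2 (log2 ratio 1.20, adjusted p 9.63e-24, exact binomial test). In the edgeR exact test the adjusted p of Clic3 was 0.125. Clic5 was at 4.06 and 5.72 TPM.

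**Figure D3:**
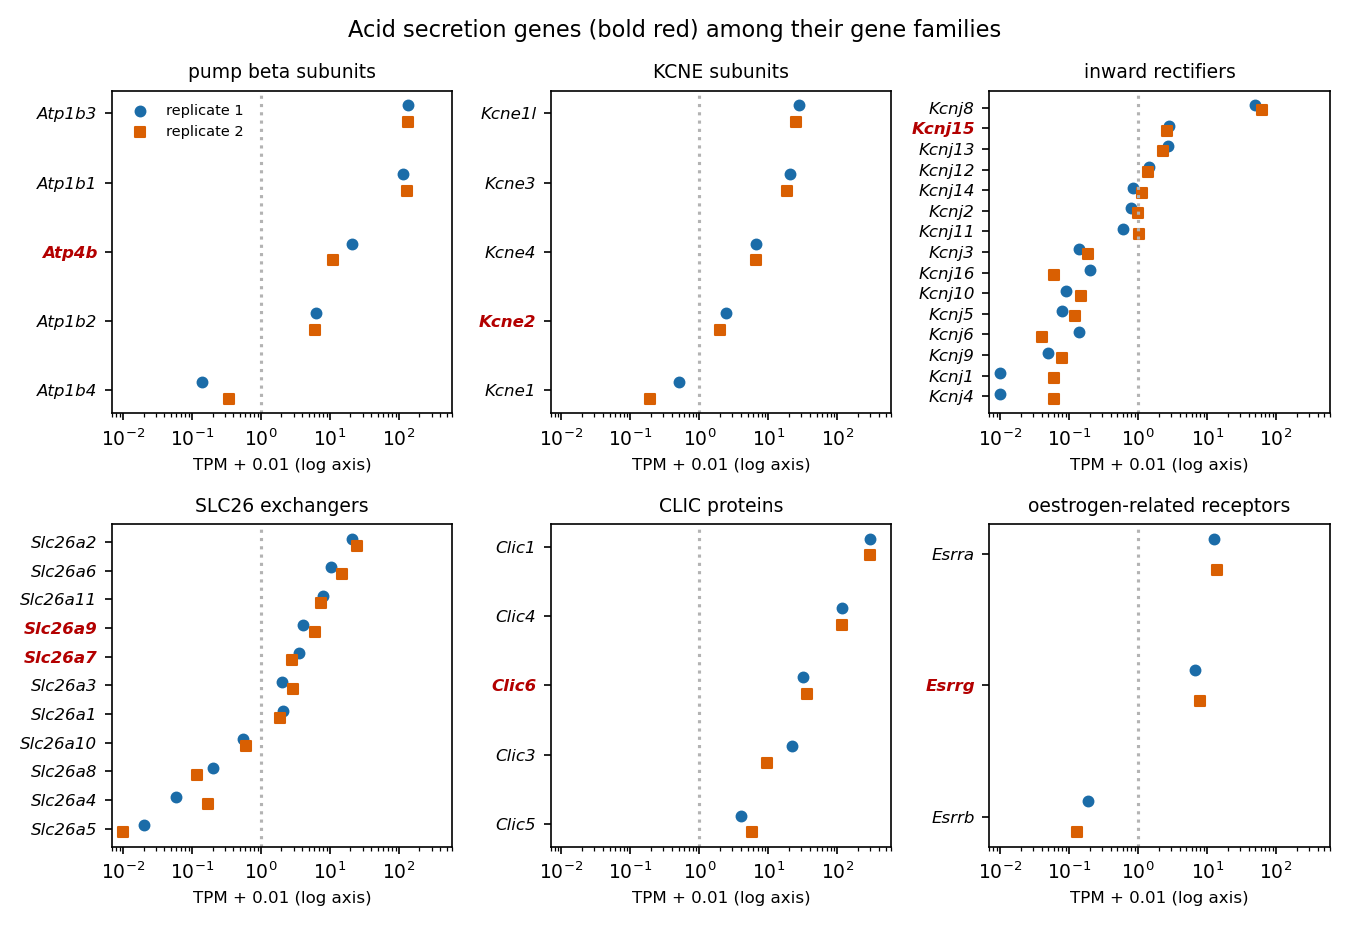
Level of each gene of 6 families in TPM plus 0.01 on a log axis, replicate 1 as circles and replicate 2 as squares, with acid secretion genes in bold red and a dotted line at 1 TPM. Esrrg is second in its family, Kcnj15 lies beside Kcnj13 below Kcnj8, Atp4b and Clic6 rank next below the leading pair, and Kcne2, Slc26a9 and Slc26a7 stand lower.

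Esrrg, the oestrogen-related receptor gamma gene (ENSMUSG00000026610.9, chr1:187608791-188214885, plus strand), had 759 counts and 6.67 TPM in replicate 1 and 875 counts and 7.91 TPM in replicate 2, or 7.29 ± 0.877 TPM (SD, n = 2). Its log2 ratio of -0.16 (interval -0.31 to -0.02) did not pass the test (adjusted p 0.0710, exact binomial test). Esrra, the family member known for mitochondrial genes in many tissues, was at 12.46 TPM in replicate 1 against 13.95 TPM in replicate 2, which was 1.87 and 1.76 times the level of Esrrg. Esrrb, known from pluripotent cells, was at 0.18 and 0.12 TPM. The coactivator genes that these receptors use were present: Ppargc1a at 3.48 and 4.29 TPM and Ppargc1b at 4.66 and 6.47 TPM in replicates 1 and 2. Perm1, a muscle regulator that acts with them, was at 0.81 and 0.49 TPM. The 12 regulator genes examined, 11 of them detected, were led by Gata4 (29.13 and 44.28 TPM), a transcription factor of the glandular stomach, and Nrip1 (33.46 and 31.23 TPM), a corepressor of nuclear receptors, and none of the 12 was called.

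Over the 9 genes, the exact binomial test gave an adjusted p under 0.05 for 7, without a fold limit, against 31.5% of all genes tested. These shares are not matched for depth. The test passes small ratios more readily at high counts, and the 9 genes had 99 to 4058 counts per library. With the fold limit 1 was called. The median log2 ratio was 0.27 for the 9 genes and 0.0030 for all genes tested, and the median size of the ratio was 0.39 for the 9 genes and 0.10 for genes averaging at least 100 counts. Replicate 1 was higher for 5 genes (Atp4a, Atp4b, Kcne2, Kcnj15 and Slc26a7) and replicate 2 for 4 (Kcnq1, Slc26a9, Clic6 and Esrrg), while with spike-in scaling, which added 0.68 to each log2 ratio, replicate 1 was higher for all 9. By the edgeR exact test, which took its spread from these same 2 libraries, 0 of the 9 passed after adjustment and 2 had an unadjusted p under 0.05. Over all genes 3.28% were called by that test and 6.89% had an unadjusted p under 0.05.

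The transcript tables separated genes read from 1 transcript from those read from several. Atp4b, Kcne2 and Clic6 each had counts on a single transcript. For Kcne2 this was Kcne2-201 with all 120 and 99 counts. Kcne2-202, which starts 3' of it and has the same coding length of 369 bases, had 0 counts. If every count could tell the 2 transcripts apart, this would allow a share of up to 2.5% in replicate 1 and 3.03% in replicate 2. Reads that fit both transcripts cannot do so, and the true limit may be higher. Kcnq1-201 held 99.5% of the counts of Kcnq1 in replicate 1 and 99.6% in replicate 2, and Slc26a7-201 held 98.3% and 99.5% of those of Slc26a7. Esrrg-201, which starts at the downstream promoter printed above, held 93.7% of the counts of Esrrg in replicate 1 and 91.0% in replicate 2. Esrrg-203 starts 23 bases after the upstream start, has a shorter coding sequence (1305 bases against 1374 in Esrrg-201) and held 3.07% and 5.26% (adjusted p 0.0729, two-sided Fisher's exact test). Transcript counts are the authors' estimates, which divide reads on shared exons.

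Short transcripts took a small share of the counts and a large share of the TPM in several members, and in both replicates in Atp4a, Slc26a9 and Esrrg. Atp4a-202, a retained-intron transcript of 738 bases, held 34.3 counts in replicate 1 and 27.68 in replicate 2, or 5.36% and 9.17% of the counts of Atp4a. In TPM, which divides by length, its share was 23.04% in replicate 1 and 34.83% in replicate 2. The full-length Atp4a-201 held 93.0% and 89.8% of the counts and 75.19% and 64.13% of the TPM in replicates 1 and 2. The gene level of Atp4a in TPM therefore includes a part with no coding sequence. Transcripts under 1000 bases likewise held 6.01% and 8.06% of the counts of Slc26a9 and 38.05% and 44.83% of its TPM in replicates 1 and 2. For Esrrg they held 3.22% and 3.70% of the counts and 31.13% and 33.51% of the TPM. No transcript of these 3 genes was called between the pools. In Kcnj15 such transcripts had 0 counts in replicate 1, and 2.34% of the counts and 17.42% of the TPM in replicate 2, and without them its level was 2.80 TPM in replicate 1 against 2.15 TPM in replicate 2. In Slc26a7 they held 1.69% and 0.489% of the counts and 12.51% and 4.03% of the TPM.

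Kcnj15 was the only 1 of 6 members tested whose transcript shares differed between the pools (an adjusted p under 0.05 and at least 10 percentage points), against 15.8% of the 9658 genes tested and 5.48% of their transcripts. A count of 1 in 6 is near the share over all genes, so what follows describes Kcnj15 and does not set the acid secretion genes apart. Kcnj15-204 held 14.9% of the counts in replicate 1 and 42.3% in replicate 2 (64.58 and 143.67 counts, adjusted p 5.44e-16, two-sided Fisher's exact test). Kcnj15-205 held 36.7% in replicate 1 and 22.2% in replicate 2 (adjusted p 0.000123, Fisher's exact test), and Kcnj15-206 held 24.5% and 7.65% (adjusted p 2.61e-09). By these estimates the share of Kcnj15-204 was lower in replicate 1, and those of Kcnj15-205 and Kcnj15-206 were higher there. The p-values treat estimated counts as reads and leave out the error of dividing reads among transcripts. Kcnj15-201, whose start lies at the promoter printed above, held 19.5% in replicate 1 and 21.3% in replicate 2. The starts of Kcnj15-204 (95257651), Kcnj15-206 (95258036) and Kcnj15-205 (95258289) all lie within 1 kb downstream of it. Kcnj15-204 and Kcnj15-205 share a coding length of 1125 bases, and transcripts of that length held 55.9% of the counts in replicate 1 and 66.0% in replicate 2. Those with 1206 coding bases, Kcnj15-201 and Kcnj15-206 among them, held 44.1% and 31.7%. The file's Kcnj15-205 is 5309 bases long and that of GENCODE M21 2576 bases, and the gene shares 333 exon bases with the antisense gene Gm49643 of M21, so the split is uncertain there.

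**Figure D4:**
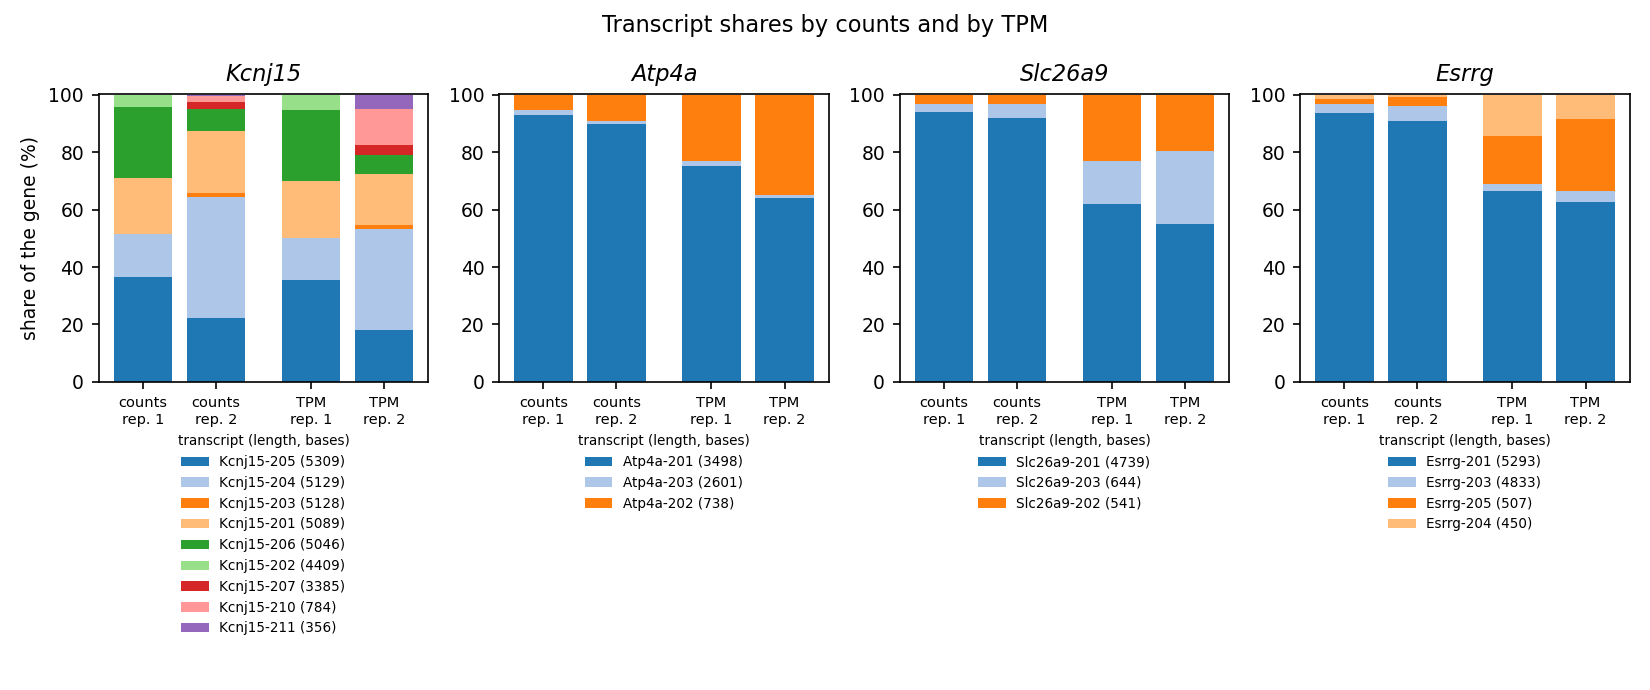
Share of each gene's counts and of its TPM (percent) on each transcript in both libraries, for the 4 members with several transcripts of note. In Kcnj15 the shares of transcripts of similar length differ between replicates 1 and 2, and in Atp4a, Slc26a9 and Esrrg short transcripts take a larger share of the TPM than of the counts.

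Genes that act around the pump were examined in 5 lists of 64 genes, of which 56 were detected, 63 tested, 4 called higher in replicate 1 and 0 lower. Over all genes the shares were 5.68% called higher and 0.784% called lower, and 64.5% of protein-coding genes were detected, so the calls in these lists were about as frequent as elsewhere. Of 8 receptor genes 4 were detected, with medians of 1.02 TPM in replicate 1 against 0.915 TPM in replicate 2. Ptger3, the prostaglandin receptor that restrains acid secretion, was at 14.16 and 12.22 TPM, and Gpr39, a zinc-sensing receptor, at 5.28 and 7.06 TPM. The muscarinic receptor gene Chrm3 was at 3.62 and 3.36 TPM and the somatostatin receptor gene Sstr2 at 1.56 and 1.40 TPM. The receptors of the main hormonal stimuli were below 1 TPM: the gastrin receptor gene Cckbr was at 0.48 and 0.43 TPM and the histamine receptor gene Hrh2 at 0.22 and 0.24 TPM in replicates 1 and 2. Casr (0.07 and 0.10 TPM) and the ghrelin receptor gene Ghsr (0.03 and 0.01 TPM) were lower still, and no receptor gene was called. Because the 9 genes were chosen by name, their detection does not test for parietal cells.

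Of 17 genes of ion transport and carbonic anhydrase 15 were detected, with summed levels of 596 TPM in replicate 1 against 528 TPM in replicate 2 and a median log2 ratio of 0.04. Car2, the cytosolic carbonic anhydrase that makes the protons and bicarbonate, was highest at 235.85 TPM in replicate 1 against 117.87 TPM in replicate 2. It was called higher in replicate 1 with a log2 ratio of 1.04, and its adjusted p in the edgeR exact test was 0.238. Kcnn4, a calcium-activated potassium channel, was also called, at 10.18 and 4.98 TPM (log2 ratio 1.06, adjusted p 1.84e-25, exact binomial test), with 0.242 in the edgeR exact test. Slc4a2, the basolateral anion exchanger that passes bicarbonate to the blood, was at 30.08 TPM in replicate 1 against 34.39 TPM in replicate 2. Slc9a4, a basolateral sodium and proton exchanger of parietal cells, was at 4.35 and 2.62 TPM, a log2 ratio of 0.63.

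All 19 genes of tubulovesicle traffic and the apical cytoskeleton were detected, with summed levels of 1958 TPM in replicate 1 against 1989 TPM in replicate 2 and a median log2 ratio of -0.04. Most of these serve vesicle traffic in many epithelia. Cd63, a tetraspanin of vesicle membranes, led at 684.09 and 741.15 TPM, followed by Rab11a, a GTPase of recycling vesicles, at 353.18 and 331.48 TPM. Mal, a raft protein of apical sorting, was the only 1 called, at 50.56 TPM in replicate 1 against 21.38 TPM in replicate 2 (log2 ratio 1.18, adjusted p 3.21e-165, exact binomial test). In the edgeR exact test the adjusted p of Mal was 0.104. Of 8 further genes named as parietal cell markers 7 were detected, and Trim50, a ubiquitin ligase of parietal cells, was below 1 TPM at 0.31 and 0.67 TPM. The creatine kinase genes Ckb (481.37 and 505.11 TPM) and Ckmt1 (135.14 and 128.01 TPM) were highest, and both are expressed well beyond the stomach. Gif, the gene of intrinsic factor, which mouse chief cells make, was at 3.27 TPM in replicate 1 against 1.17 TPM in replicate 2. It was called higher in replicate 1 (145 and 52 counts, log2 ratio 1.51, adjusted p 9.66e-11, exact binomial test), and passed the edgeR exact test with an adjusted p of 0.0422.

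Several members are also known from other organs. None of 6 kidney tubule markers was detected, and their summed level was 0.07 TPM in replicate 1 against 0.13 TPM in replicate 2, with Aqp2, Slc12a1 and Umod at 0 counts. Of 5 thyroid markers Slc5a5 alone was detected (3.35 and 4.92 TPM), a gene that gastric epithelium also expresses, and Tg was below 1 TPM. Of 5 choroid plexus markers 3 were detected (Folr1, Cldn2 and Kcnj13), with sums of 28.0 TPM in replicate 1 against 35.3 TPM in replicate 2, while Otx2 and Kl were below 1 TPM. Intestine markers summed to 859 TPM in replicate 1 against 1065 TPM in replicate 2, with 7 of 8 detected. The only 1 called was Sis, higher in replicate 1 but below 1 TPM in both pools (0.23 and 0.04 TPM). Cdx1 was nearly equal at 13.73 and 13.26 TPM. Summed markers of exocrine pancreas, given above, were likewise lower in replicate 1. The part of either list in the levels of Kcnq1 and Slc26a9, which were lower in replicate 1 too, was not tested.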

How the data were processed

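Total RNA of 2 pools of embryonic stomachs was read from gene and transcript tables on mm10 with annotation M4, per the text deposited with them. Not given in the sources used here are the aligner, the quantification program and any strand setting. Per the file headers, the authors deposited an expected count per gene and transcript, with shared reads divided among features. The authors also gave TPM and FPKM, scaled by effective length and library, and each transcript's share of its gene's TPM in percent, per the file headers. Spike-ins were included in the authors' TPM. Depth was 44038879 and 45625704 expected counts. Library sizes and tests excluded spike-ins.

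Symbols came from GENCODE M21 by identifier without version (42462 of 43346 genes). The symbols Cblif and Kcne5 were not matched, and Gif and Kcne1l were used. Expected counts were rounded. Genes whose counts summed to at least 10 were compared by a two-sided exact binomial test with TMM sizes (edgeR 4.0.16) and Benjamini-Hochberg adjustment over all of them. Log2 ratios are replicate 1 over replicate 2 with a prior count of 0.5. Transcripts of genes with at least 100 counts in each library were compared by two-sided Fisher's exact tests, adjusted over all 48839 transcripts. Both tests cover counting error only. They were tried on simulated counts that held counting error alone, which cannot show how they perform with spread between replicates. The transcript test leaves out the error of dividing reads among transcripts. Their p-values set the 2 libraries against counting error, not against the spread between replicates. The edgeR exact test used a common dispersion, from a fit of the intercept alone to the same 2 libraries that it compared.

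Named genes were all members, family genes by value or range, and for each pathway list the 2 highest in mean TPM, those below 1 TPM and those called. Chrm3, Sstr2, Slc4a2, Slc9a4, Ppargc1a and Ppargc1b were named after their values were seen. A few genes under this rule are not reported here. No gene was named for a like pattern, because 2 libraries give 1 ratio per gene. The members and lists were chosen with earlier results of these data known. Alternatives were other units, thresholds, count minimums, pseudocounts, library sizes (DESeq2 1.42.0 size factors, totals, spike-ins), tools, summed transcripts, protein-coding genes alone and each library left out.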

Additional observations from a re-analysis of the deposited data

How the results depend on the processing

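With 2 libraries of 1 group the data hold no condition to test, and most calls rest on counting error. No paired analysis was possible because the series has 1 group. The count of called members was 1, but 3 with spike-in library sizes (Atp4a, Atp4b and Kcnj15), and 0 with the edgeR exact test, which had 2 members at an unadjusted p under 0.05. Over all genes 6.47% were called with TMM sizes and 3.28% by the edgeR exact test. The share over all genes with spike-in sizes was not taken, so the 3 cannot be set beside it. With spike-in sizes the log2 ratios of Kcnq1 (0.17), Slc26a9 (0.27), Clic6 (0.54) and Esrrg (0.52) turned positive, and those of Atp4b (1.63) and Kcnj15 (1.07) passed the fold limit, while Kcne2 (0.995) stayed just under it with an adjusted p of 7.09e-07 against 0.244 (exact binomial test). These sizes add 0.68 to every log2 ratio by construction, so the differences among members stayed. The other size factors, count minimums and gene sets run changed no member's direction or call. In gene-level TPM the log2 ratio of Atp4a was 0.90 and 0.77 with pseudocounts of 0.1 and 1, under the fold limit. From transcripts of at least 1000 bases, without a pseudocount, it was 1.15, past that limit. The log2 ratio of Atp4b over Atp4a was 1.49, but 0.42 in CPM, 1.38 in posterior-mean TPM, 1.47 and 1.34 with pseudocounts of 0.1 and 1, and 1.99 from transcripts of at least 1000 bases, which was added after the data were seen. That of Kcne2 over Kcnq1 was -2.02, but -2.81 in CPM. With either library left out, 9 members were detected, the median TPM was 6.07 to 6.67, and the log2 ratios were 1.49 to 1.49 (Atp4b over Atp4a) and -2.42 to -1.62 (Kcne2 over Kcnq1). The count of members with a changed transcript share was 1 under all settings run. Depth limits Kcne2, with 99 counts in replicate 2, most.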
